A study of Mus musculus with 6 samples.

Results

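The 76 mitochondrial ribosomal protein genes examined here were all gene symbols in the count tables that begin with Mrpl or Mrps followed by a number, pseudogenes left out. They numbered 76 of 23366 genes, of which 47 carry large subunit symbols (Mrpl) and 29 small subunit symbols (Mrps). The mitochondrial ribosome, or mitoribosome, translates the few proteins encoded by mitochondrial DNA, all of which are subunits of the respiratory chain complexes and the ATP synthase. Its RNAs are transcribed in the organelle, whereas its proteins are encoded by nuclear genes, made in the cytoplasm and imported. Some of these proteins descend from bacterial ribosomal proteins, and others were added during the evolution of mitochondria. Mitochondrial respiration is known to support both the stem cells and the absorptive cells of the intestinal epithelium.

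RNA was sequenced from small intestinal epithelium of mouse embryos at day 13.5, in 3 mutant libraries of the genotype Shh-cre-egfp:Tcf7l1 lox/lox and 3 wild type libraries, with no treatment in either group. Each library was made from 500 EpCAM-positive cells obtained by sorting. The mutants carry Cre in the Shh locus, which is active in the gut epithelium, and Cre removes the floxed part of Tcf7l1, the gene of a transcription factor that represses WNT target genes. Libraries with Cre alone or the floxed allele alone were not analysed here. Whether each library came from a separate embryo is not stated in the labels, so that p-values measure the spread between these libraries, which may be technical.

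Total counts per library ranged from 18216537 to 20397278. Tcf7l1 fell from 438 ± 64.1 normalised counts in wild type to 49.1 ± 21.1 in mutant libraries (SD, n = 3 each), and Shh, which hosts the Cre allele, fell from 481 ± 65.8 to 198 ± 22.6. Xist was at 0 in all wild type libraries and 4 Y-linked genes (Kdm5d, Uty, Eif2s3y and Ddx3y) were at 0 in all mutant libraries, so that genotype and sex of the embryos cannot be told apart here. The summed level of 9 epithelial markers was between 164784 and 175548 normalised counts in the wild type group and between 157343 and 161246 in the mutant group, with 6 of the 9 lower and 2 higher at adjusted p under 0.05. Of the markers of other cell types, the 4 blood markers summed to at most 0.932 normalised counts in any library, with Hba-a1, Hbb-b1 and Ptprc at 0 in all. The 4 endothelial markers summed to 0 to 11.4 for wild type and 0 to 20.7 for mutants, all of it Pecam1, with Cdh5, Kdr and Emcn at 0. The 4 neural crest markers summed to 169 to 172 for wild type and 143 to 221 for mutants, most of it Elavl4, and 0 of the 2 that were tested passed. The 7 summed mesenchymal markers stood between 1313 and 1537 for wild type and between 1025 and 1457 for mutants, most of it Vim. Of the 3 that were tested, Vim and Col3a1 fell and Acta2 rose, with 69.4 to 105 normalised counts for wild type, 95.3 and 171 in mutant replicates 1 and 2 and 489 in mutant replicate 3. The summed level of 5 stress genes was between 28374 and 32382 for wild type and between 35925 and 37976 for mutants. Of these 5 genes, Atf3 and Hspa1b rose and Fos and Jun fell, and their part in the results below was not tested. One wild type library, replicate 3, stood apart from the other wild type libraries in the direction of the mutants, as described with the values of each library, and counts are therefore also given without it.

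The mitochondrial ribosomal protein genes were higher in the mutant epithelium across both subunits, with a median fold change of 1.24. All 76 genes passed the filter on low counts. Of these, 53 rose at an adjusted p under 0.05 in edgeR's quasi-likelihood test, which is 69.7% of the members against 13.6% of the 12501 genes tested. The 2 members Mrpl39 and Mrps10 fell, which is 2.63% against 15.1% of all genes tested, and the remaining 21 did not pass the test. Short genes as a whole shifted in the same direction, and with a correction for transcript length centred on 0, described below, 29 members rose (38.2%, against 12.2% of all genes) and their median log2 fold change was 0.15. The median log2 fold change of the members was 0.31 (quartiles 0.25 and 0.38), whereas that of all genes tested was −0.04. The log2 fold change was above 0 in 72 of 76 members and in 45.7% of all genes tested. Without wild type replicate 3, 65 members rose (85.5%, against 18.3% of all genes) and their median log2 fold change was 0.42. Without wild type replicates 1 or 2 or mutant replicate 2, 31, 33 and 33 members rose (40.8%, 43.4% and 43.4%, against 8.16%, 8.63% and 8.21% of all genes). In such bulk samples, a change in the share of cells of a type and a change in RNA per cell cannot be told apart.

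Large and small subunit genes had close median changes, and a difference between the subunits was not tested. Of the 47 Mrpl genes, 34 rose (72.3%), 1 fell and the median log2 fold change was 0.31, with quartiles of 0.25 and 0.41. Of the 29 Mrps genes, 19 rose (65.5%), 1 fell and the median was 0.31, with quartiles of 0.25 and 0.35. Moving Mrps30 and Mrps18a, whose proteins were placed in the large subunit by structures of the ribosome, to that subunit and leaving out Mrps36 gave medians of 0.31 for the large and 0.32 for the small subunit. The 46 members classed as having a bacterial counterpart had a median log2 fold change of 0.32, and the 30 classed as specific to mitochondria 0.30. This split is approximate. The 30 include Mrps18a and Mrps18b, paralogues of a bacterial protein, and Mrps36, described below as outside the ribosome. The 3 mutant values lay entirely above or below the 3 wild type values in 62 of 76 members (81.6%), compared with 43.0% of all genes tested. They lay above in 60 members (78.9%), compared with 20.8%. Exons of other genes overlap those of 26 members, among them Mrpl12, Mrpl24, Mrpl44 and Mrps7, and 13 members have a stretch elsewhere in the genome that is at least 95% identical over at least 50% of the transcript, so that their counts are less certain.

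**Figure D1:**
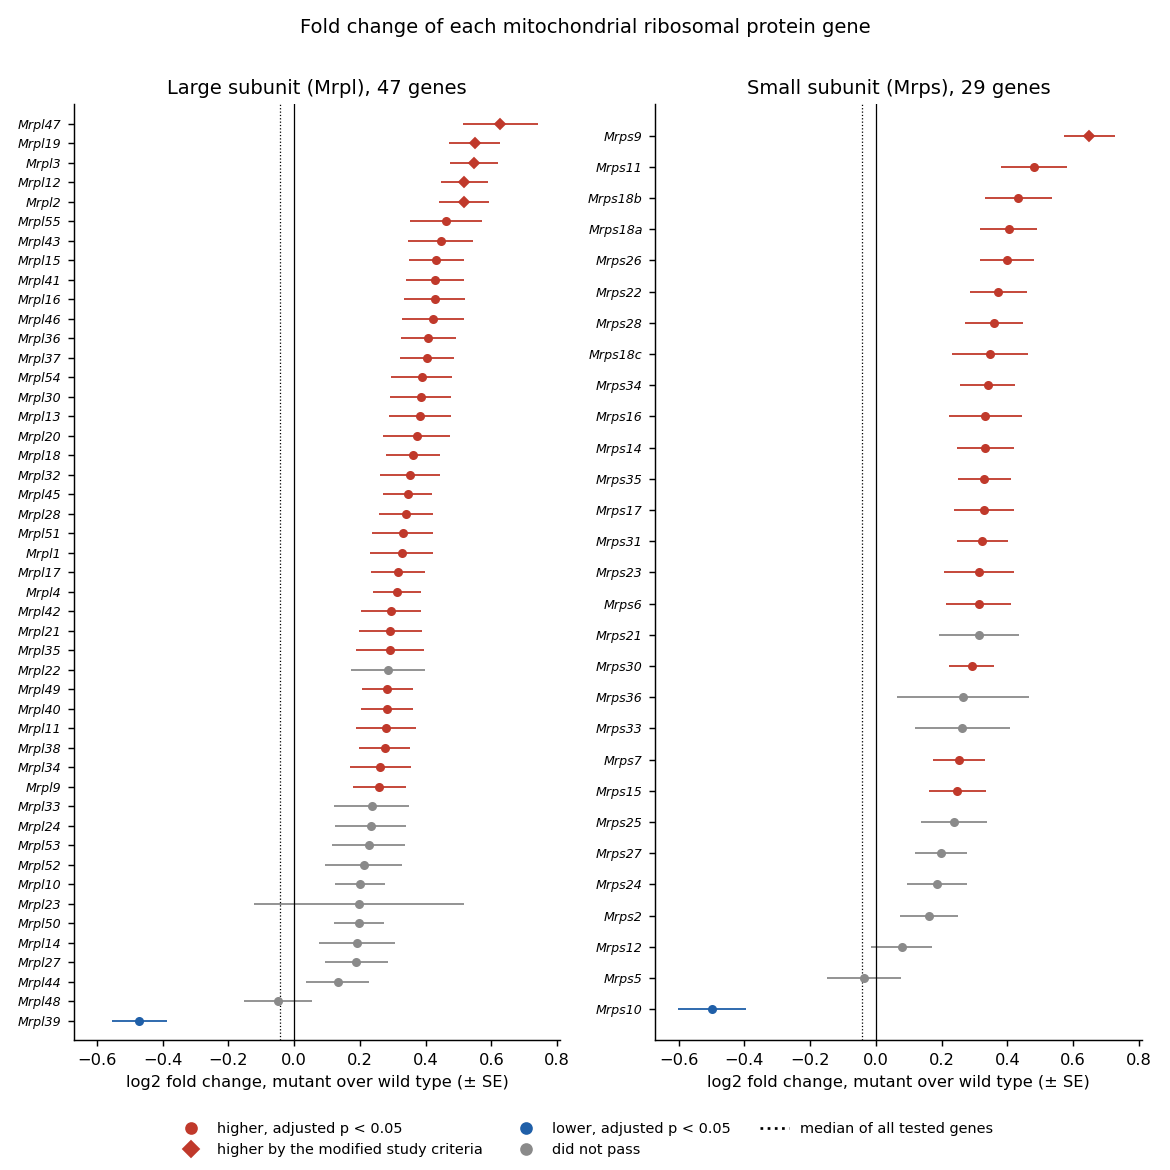
Log2 fold change (mutant over wild type, x axis) of each of the 76 genes, with the standard error as a bar, for the 47 large subunit genes (left) and the 29 small subunit genes (right). Red points rose and blue points fell at adjusted p under 0.05, diamonds also met the modified criteria of the study, grey points did not pass, and the dotted line is the median of all genes tested. All but 4 points lie to the right of 0, with quartiles of 0.25 and 0.38, and Mrpl39 and Mrps10 lie far to the left.

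Modified criteria of the study were an adjusted p under 0.01, a change of 0.5 or more on the log2 scale and, in place of the study's limit of 50 RPKM (reads scaled to library size and transcript length), a mean of 50 normalised counts or more. By these, 6 members were called higher (7.89%, against 2.78% of all genes tested) and 0 were called lower (against 5.83%). With the limit of 50 RPKM, 5 members were called higher and 0 lower, since Mrpl47 stood at 11.4 RPKM in wild type and 17.6 in mutant libraries. Without wild type replicate 3, 17 members were called higher by the modified criteria, while the number over all genes went from 348 of 12501 to 516 of 12776. Leaving out any 1 library gave 4 to 17 higher and 0 to 2 lower. All 6 encode proteins with a bacterial counterpart, but so do most members, with 46 in that class and 30 classed as specific to mitochondria. The classes had close median log2 fold changes of 0.32 and 0.30, and whether the 6 depart from the share of the family was not tested. Gene positions are given in mm9. Mrps9 (chr1:42908078-42962527, plus strand) encodes a protein of the small subunit head that reaches towards the transfer RNA sites. It was counted at 2355, 2279 and 2547 normalised counts in wild type and 3614, 3910.4 and 3739 in mutant libraries, a log2 fold change of 0.65 ± 0.076 (± SE, edgeR, adjusted p = 1.85e-05). The groups were well separated, and the difference between them was larger than the spread within either.

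Mrpl47 (chr3:32624319-32636069, minus strand), whose protein lies near the exit of the peptide tunnel, stood at 667, 723 and 855 in wild type and 1176, 1175 and 1116 in mutant libraries, a log2 fold change of 0.63 ± 0.11 (edgeR, adjusted p = 0.000963). Relative to their mean, its wild type values were the most spread of the 6, and replicate 3 was again the highest of them. Mrpl19 (chr6:81907845-81915952, minus strand) encodes a protein at the interface of the subunits. Its values were 2054, 2221 and 2157 in wild type and 2973, 3300.2 and 3137 in mutant libraries, a log2 fold change of 0.55 ± 0.077 (edgeR, adjusted p = 0.000106). Here wild type replicate 3 lay between the other wild type libraries. An exon of AW146020 on the opposite strand covers 36.0% of the exon bases of Mrpl19, and the counting was not stated to use strand. Exons of Actl6a and Ndufb5 on the opposite strand likewise cover 13.1% and 4.62% of Mrpl47.

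Mrpl3 and Mrpl2 encode proteins that reach towards the peptidyl transferase centre, where peptide bonds are formed. Mrpl3 (chr9:104955569-104979796, plus strand) stood at 2651, 2694 and 2839.9 in wild type and 3944, 4105 and 3909 in mutant libraries, a log2 fold change of 0.55 ± 0.072 (edgeR, adjusted p = 5.89e-05). Mrpl2 (chr17:46783178-46787088, plus strand) stood at 2429.7, 2466 and 2583 in wild type and 3531, 3780.5 and 3379 in mutant libraries, a log2 fold change of 0.52 ± 0.076 (edgeR, adjusted p = 0.000159). In both genes the wild type values were close together and the mutant values lay well above them. Mrpl12 (chr11:120345927-120350379, plus strand) encodes the stalk protein that recruits translation factors and also binds the mitochondrial RNA polymerase. It was the most abundant of the 6, at 6929, 7021 and 7916 in wild type and 10425, 10975 and 9905 in mutant libraries, a log2 fold change of 0.52 ± 0.073 (edgeR, adjusted p = 0.000107). Replicate 3 was the highest wild type library, yet it lay further below the lowest mutant library than the mutant libraries lay from each other.

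The 2 members that fell did so by slightly less than those 6 rose. Mrps10 (chr17:47505836-47518366, plus strand) encodes a protein of the small subunit head. It was counted at 1398, 1369.5 and 1609 in wild type and 1102, 1062 and 934 in mutant libraries, a log2 fold change of −0.50 ± 0.10 (edgeR, adjusted p = 0.00261). Mrpl39 (chr16:84717821-84735987, minus strand) encodes a mitochondria-specific protein of the large subunit related to threonyl-tRNA synthetase. It stood at 3409, 3476 and 4027 in wild type and 2496, 2560.1 and 2819 in mutant libraries, a log2 fold change of −0.47 ± 0.084 (edgeR, adjusted p = 0.000861). In both genes the highest wild type library was replicate 3 and the groups did not overlap. Both falls were at an adjusted p under 0.05 in each of the 17 other settings tried. The genome holds another stretch that is 96.7% identical to Mrps10 over 95.4% of its transcript, and reads that match both places equally were not counted.

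**Figure D2:**
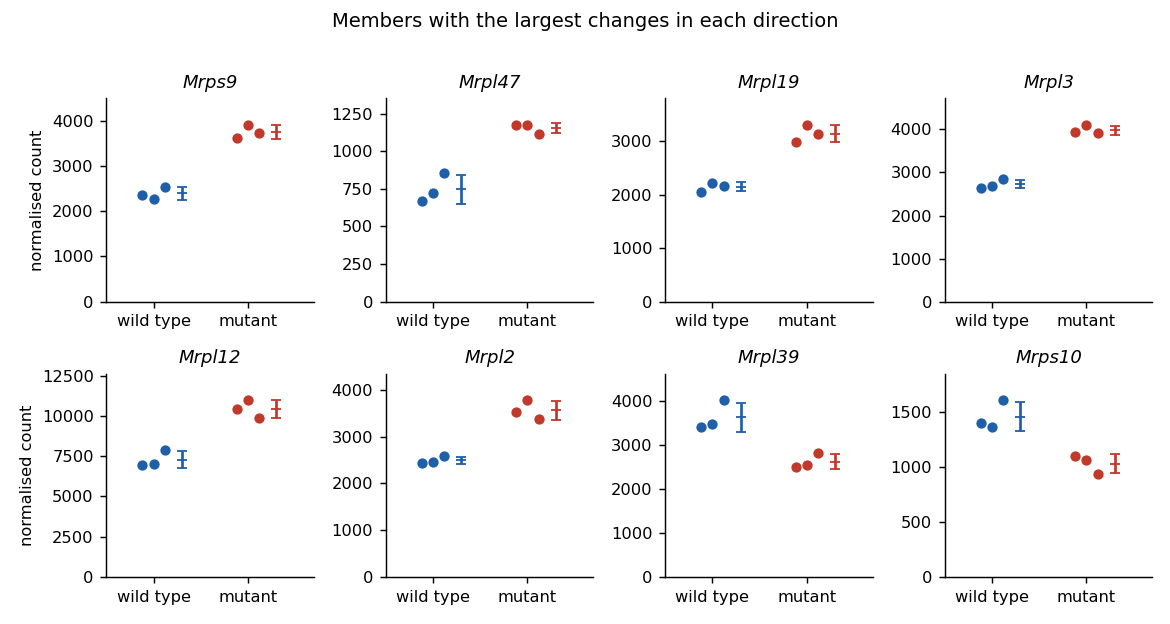
Normalised counts (y axis, starting at 0) of the 6 members called higher by the modified criteria of the study and of the 2 members that fell, in the 3 wild type (blue) and 3 mutant (red) libraries. Points are single libraries, and the bars beside them are the mean ± SD of the group. In each of the 8 panels the groups do not overlap.

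The genes listed for their role in the ribosome included both members that rose and members that did not pass the test. At the peptide exit tunnel, Mrpl45, whose protein anchors the ribosome to the inner membrane, stood at 3223, 3017 and 3443 in wild type and 3991, 4190.4 and 4125 in mutant libraries, a log2 fold change of 0.35 ± 0.074 (edgeR, adjusted p = 0.00306). For Mrpl22, Mrpl23 and Mrpl24, which line or surround the tunnel, the test was not passed. Mrpl22 was at 896, 852 and 1071 in wild type and 1129.7, 1234 and 1072 in mutant libraries (log2 fold change 0.29 ± 0.11), without overlap. Mrpl24 was at 909, 969 and 1137 in wild type and 1214, 1171 and 1155 in mutants (0.23 ± 0.11), also without overlap. Mrpl23 had the lowest count of all members, at 54.4, 58.7 and 71.3 in wild type and 66.3, 78.8 and 66.4 in mutants (0.20 ± 0.32), and its groups overlapped, so that a difference of this size was not detectable at this depth. Mrpl23 and Mrpl22 each have a near-identical stretch elsewhere in the genome. Mrpl44, whose protein is related to RNase III, was at 1578, 1526 and 1797 in wild type and 1728, 1964 and 1679 in mutants (0.13 ± 0.096), with overlap and without passing the test.

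In the small subunit, Mrps7, which binds the ribosomal RNA of the head, rose by 0.25 ± 0.080 on the log2 scale, from 3085, 3109 and 3568 in wild type to 3903, 4064 and 3662 in mutant libraries (edgeR, adjusted p = 0.0269). Mrps22 and Mrps34, mitochondria-specific genes mutated in inherited respiratory chain disease, rose by 0.37 ± 0.088 (edgeR, adjusted p = 0.00536) and 0.34 ± 0.084 (edgeR, adjusted p = 0.00713). Mrps22 was at 1906, 1857 and 2249.7 in wild type and 2555, 2694 and 2534 in mutant libraries. Mrps34 was at 2095, 2095 and 2378 in wild type and 2765, 2965 and 2584 in mutants, but exons of Mapk8ip3 on the opposite strand and of Nme3 on the same strand cover 63.4% and 37.0% of its exon bases. Mrps16, a further disease gene with a bacterial counterpart, rose by 0.33 ± 0.11 (edgeR, adjusted p = 0.0345), from 852, 819 and 958 to 1009.5, 1207 and 1095. The genome holds another stretch that is 95.6% identical to Mrps16 over 96.5% of its transcript. Of the 17 other settings tried, the call was kept in 7 for Mrps16 and in 9 for Mrps7. Mrps12, whose protein is part of the decoding centre, was at 1698, 1648 and 1969 in wild type and 1832, 1982 and 1796 in mutant libraries, a log2 fold change of 0.08 ± 0.092 that did not pass the test, and the groups overlapped. Its direction turned with library size as the only scaling (−0.03) and with the corrections for gene length (−0.18 with the centred one).

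In 3 members the symbol differs from the place of the protein. Mrps30, a large subunit protein, rose by 0.29 ± 0.069 (edgeR, adjusted p = 0.00567), at 3840.1, 3714 and 3867 in wild type and 4476, 4839 and 4663 in mutant libraries. Mrps18a is one of 3 paralogues of a single bacterial protein and the only one of them in the large subunit. It rose by 0.40 ± 0.086 (edgeR, adjusted p = 0.00297), from 2268, 2304 and 2709.7 to 3154, 3438 and 3044. Its small subunit paralogues Mrps18b and Mrps18c also rose, by 0.43 ± 0.10 and 0.35 ± 0.12. Since 69.7% of all members rose, a shared direction of the 3 paralogues does not set them apart from the family. The call of Mrps18c was not kept with the centred length correction, nor in every fit that left out a library. For Mrps18b, the genome holds another stretch that is 99.9% identical over 65.3% of its transcript. An exon on the opposite strand also covers 30.5% of its exon bases. Mrps36, now known as a component of the alpha-ketoglutarate dehydrogenase complex rather than of the ribosome, was at 141, 149 and 161 in wild type and 185, 180.0 and 176 in mutant libraries, without overlap. Its log2 fold change of 0.26 ± 0.20 did not pass the test (edgeR, adjusted p = 0.348), and its transcript has 2 near-identical stretches elsewhere in the genome.

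The order of the genes by expression level was nearly the same in both groups (Spearman's rho 0.97 across the 76 genes between wild type and mutant RPKM, with libraries as the shared source). RPKM was computed here from normalised counts and transcript length. In wild type, large subunit genes had a median of 88.8 RPKM and a range of 4.55 to 284, and small subunit genes a median of 77.9 and a range of 10.9 to 150. The median of all tested genes with a length was 8.99 RPKM. Mrpl12, Mrpl42 and Mrpl28 were the most highly expressed at 284 ± 21.2, 274 ± 36.0 and 267 ± 31.1 RPKM in wild type (SD, n = 3), and 406 ± 20.8, 336 ± 21.8 and 337 ± 11.4 RPKM in mutant libraries. In wild type the 3 genes did not differ from each other beyond their spread, and in mutant libraries Mrpl12 lay above the other 2. Mrpl28 rose by 0.34 ± 0.082 on the log2 scale (edgeR, adjusted p = 0.00609). Mrpl42 rose by 0.29 ± 0.090 (edgeR, adjusted p = 0.0235), although the 3 wild type values of 3360.0, 3227 and 4095 reached into the mutant values of 4435, 4611 and 4055. Its call was kept in 7 of the 17 other settings tried. Mrpl23, Mrps5 and Mrps36 were lowest, at 4.55 ± 0.649, 10.91 ± 0.719 and 10.97 ± 0.732 RPKM in wild type. Mrps5, whose protein lies at the channel where messenger RNA enters, was at 884, 1007 and 970.4 normalised counts in wild type and 988, 825 and 976 in mutant libraries. Its log2 fold change of −0.04 ± 0.11 did not pass the test and turned to 0.08 with the centred length correction.

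The smallest rises that passed the test were those of Mrps15, Mrps7 and Mrpl9. Mrps15, an early binder of the small subunit RNA, rose by 0.25 ± 0.088 (edgeR, adjusted p = 0.0449), with 2452, 2648 and 2961 in wild type and 2968, 3479 and 3124 in mutant libraries. Its highest wild type library lay just under its lowest mutant library. Mrpl9, whose protein has a bacterial counterpart in the large subunit, rose by 0.26 ± 0.082 (edgeR, adjusted p = 0.0266), from 2019, 1988 and 2134 to 2277, 2469.5 and 2604. Of the 17 other settings tried, the call was kept in 6 for Mrps15, 9 for Mrps7 and 8 for Mrpl9. The 21 members that did not pass had log2 fold changes between −0.05 (Mrpl48) and 0.31 (Mrps21), and 19 of them were above 0.

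The share of all counts assigned to the 76 genes was 0.818%, 0.827% and 0.911% in the wild type libraries and 0.972%, 1.03% and 0.967% in the mutant libraries. Replicate 3 was the highest wild type library, but the groups did not overlap. The shares averaged 0.852% ± 0.0513 for wild type and 0.989% ± 0.0336 for mutants (SD, n = 3 each), a ratio of 1.16. The ratio was 1.17 for large and 1.14 for small subunit genes. In wild type replicate 3, the members shifted together. Relative to the wild type mean of each gene, the median of the 76 members was −0.07, −0.07 and 0.14 on the log2 scale in wild type replicates 1 to 3, and 0.30, 0.38 and 0.27 in mutant replicates 1 to 3. All 76 members were above the wild type mean in wild type replicate 3, against 3 and 4 in the other wild type libraries and 73 in each mutant library. That mean includes replicate 3, so the low numbers in the other wild type libraries follow from its high values. Such numbers were not counted over all genes, but the median of all genes in the shortest length quartile was also raised in replicate 3, at 0.10. Between the member medians of wild type replicate 3 and the lowest mutant library a gap of 0.13 remained, whereas the wild type libraries themselves spanned 0.21.

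**Figure D3:**
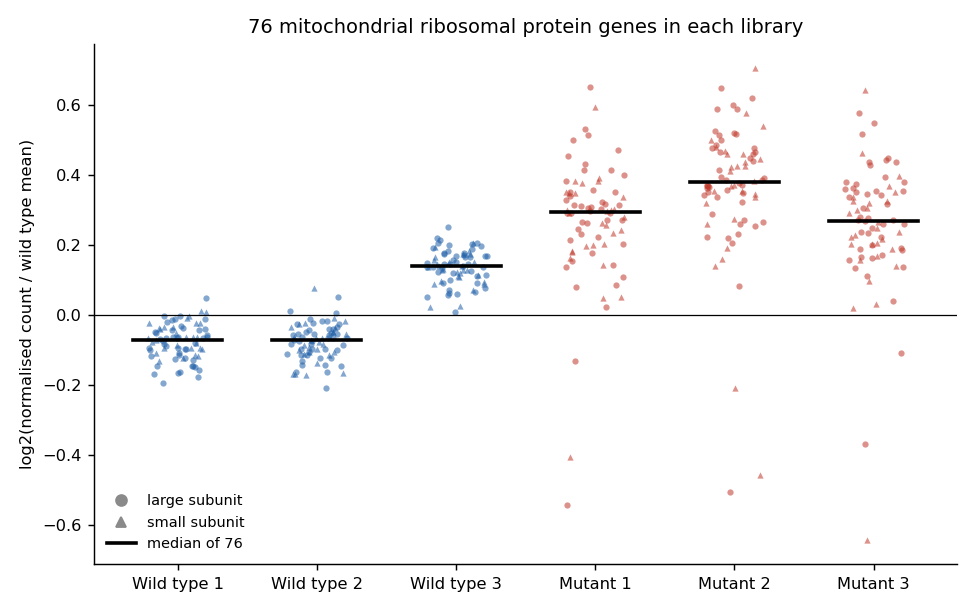
Each point is the log2 ratio (y axis) of a gene's normalised count in one library to its mean in wild type, for the 76 members in each of the 6 libraries (x axis). Circles are large and triangles small subunit genes, and black lines are the medians. The median is −0.07 in 2 wild type libraries, 0.14 in wild type replicate 3 and 0.27 to 0.38 in the mutant libraries, with few members below 0 there.

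Gene length moved with the result. The members are short, with a median transcript length of 1113 bases (405 to 6073) against 2653 for the 11874 tested genes with a length. Across all tested genes, the median log2 fold change was 0.15 in the length quartile with the shortest transcripts and −0.02, −0.16 and −0.17 in the next 3 quartiles (Spearman's rho of length and log2 fold change −0.26 across genes, which share their libraries). Of the members, 56 were in the shortest quartile, and 42 of these rose, whereas 25.9% of all genes in that quartile did. In the quartiles of longer transcripts, 3 of 9, 6 of 6 and 2 of 5 members rose, beside 14.8%, 8.49% and 5.53% of all genes there. Median log2 fold changes of members were 0.33, 0.20, 0.33 and 0.24 from the shortest to the longest quartile. Among the 76 members, length and log2 fold change had a rho of −0.07, and the 25 shortest, 25 middle and 26 longest had medians of 0.31, 0.34 and 0.29.

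Other genes of like length had a median between those of all genes and of the members. The 2451 tested genes that are not members and whose transcripts lie within the middle 50% of member lengths (781 to 1712 bases) had a median log2 fold change of 0.13, and 23.9% of them rose. Of the 397 of these that were also within the middle 50% of member counts, 33.8% rose and the median was 0.17. The difference by length was seen between libraries of 1 group as well. Relative to the wild type mean, the median of all genes in the shortest quartile was 0.10 in wild type replicate 3, against −0.05 and −0.06 in the other wild type libraries and 0.12 to 0.20 in mutant libraries. That of the longest quartile was −0.12 in wild type replicate 3, 0.02 and 0.08 in the other wild type libraries and −0.19 to −0.16 in mutant libraries.

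When the log2 counts of each library were corrected for a smooth trend with length, centred on 0, the members kept a positive median of 0.15 against −0.05 for all genes tested, and 29 rose and 2 fell. This was 38.2% of members higher and 2.63% lower, against 12.2% and 13.7% of all genes in the same fit. The large subunit median was then 0.18 and the small subunit median 0.14. The distance between the medians of members and of all genes tested was thus 0.36 without and 0.20 with the correction. Of the 53 members that rose, 28 also did so with the correction, 30 did so in every fit that left out 1 library, and 20 did both. These 20 were Mrpl2, Mrpl3, Mrpl12, Mrpl15, Mrpl16, Mrpl18, Mrpl19, Mrpl36, Mrpl37, Mrpl45, Mrpl46, Mrpl47, Mrps9, Mrps11, Mrps18a, Mrps18b, Mrps22, Mrps26, Mrps30 and Mrps31. Kept calls were not counted over all 1702 genes that rose, so whether members kept them more often than other genes is not known. Whether the trend with length arose in the cells or in the preparation of the libraries was not tested.

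**Figure D4:**
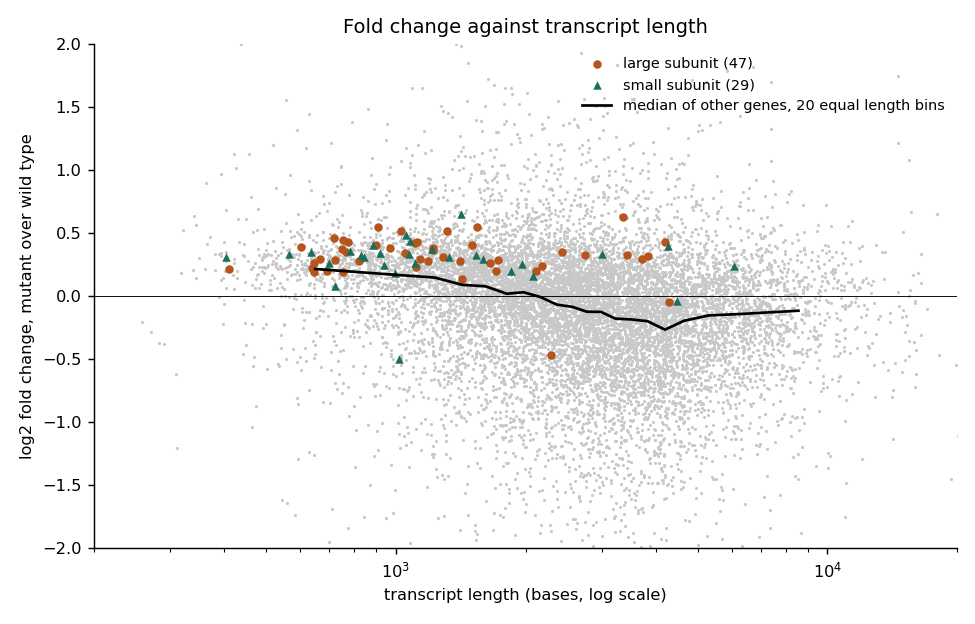
Log2 fold change (mutant over wild type, y axis) against transcript length in bases (x axis, log scale) for the tested genes. Orange circles are the 47 large and green triangles the 29 small subunit genes, grey points are other genes, and the line joins the medians of other genes in 20 bins of equal size, while 255 other genes lie outside the axes. Most members lie above the line, also where it is below 0, and Mrpl39 and Mrps10 lie below it.

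Of 7 genes for mitoribosomal proteins with other symbols, 4 rose (57.1%) and 1 fell (14.3%). The genes Ptcd3, Chchd1, Dap3 and Mrp63 rose by 0.29, 0.33, 0.25 and 0.40 on the log2 scale, Aurkaip1 and Ict1 did not pass the test (0.22 and 0.19), and the median was 0.25. Gadd45gip1 fell, with 1724, 1751 and 1835 normalised counts in wild type and 1157, 1059.6 and 1157 in mutant libraries, a log2 fold change of −0.65 ± 0.090 (edgeR, adjusted p = 8.96e-05). Its product is a large subunit protein that was first described as an inhibitor of the cell cycle. It was the only one of the 7 called by the modified criteria, in which a mean count stands in place of the RPKM.

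The other lists of the pathway were read against the 13.6% of all genes that rose and the 15.1% that fell, and no test compared the lists. Among 21 tested genes of ribosome assembly and ribosomal RNA modification, 3 rose (Rbfa by 0.57, Fastkd2 by 0.49 and Mpv17l2 by 0.33), which is 14.3% and near the share of all genes. In that list 1 fell (Mrm1, −0.58) and the median was 0.13. Rbfa is a small subunit assembly factor and Mrm1 a methyltransferase of the large ribosomal RNA. Among 16 translation factors, 3 rose (18.8%) and 0 fell, with a median of 0.16. Those that rose were the elongation factors Gfm1 (0.43) and Tsfm (0.29) and the membrane insertase Oxa1l (0.34). Of 22 mitochondrial tRNA synthetases and related enzymes, 7 rose (31.8%) and 1 fell (Aars2, −0.96), with a median of 0.16. Among 18 genes of mitochondrial DNA transcription and upkeep, Tfam and Ssbp1 rose by 0.32 and 0.29, Mterf and Peo1 fell (−1.02 and −0.41), and the median was 0.08. These are 11.1% in each direction, below the shares of all genes. The regulators Nrf1 (0.05), Gabpa (−0.04), Gabpb1 (0.09), Yy1 (0.08) and Myc (0.13) did not pass the test. Neither did Ppargc1b (0.43), Pprc1 (−0.24) and Esrra (−0.15). Ppargc1a had a larger change of 1.65 that did not pass either, at low mean counts of 11.6 in wild type and 36.7 in mutant libraries.

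Because most members moved together, their promoters were examined for motifs of factors known to act at nuclear genes for mitochondrial proteins. RefSeq promoter windows (GRCm38.p6, from 250 bases before to 50 bases after the start) were present for 67 of the 76 members, with 73 windows. Searched on both strands, the NRF1 core (GCGC, any base, TGCGC) was in 16.4% of member windows, in 4.60% of all 32851 windows and in 9.86% of windows of tested genes. The ETS core CCGGAAG, bound by the GABP factors, was in 32.9%, 8.86% and 17.0%, and the YY1 core AANATGGC in 27.4%, 6.05% and 8.38%. The E-box CACGTG, bound by Myc and related factors, was in 9.59%, 7.15% and 10.05%. At least one of the first 3 motifs was in 61.6% of member windows, 17.4% of all windows and 30.7% of windows of tested genes, and the share was 63.0% for large and 59.3% for small subunit windows. Members with and without a motif had similar median log2 fold changes, 0.33 and 0.29 for the NRF1 core, 0.31 and 0.29 for the ETS core, and 0.29 and 0.31 for the YY1 core. For the E-box they were 0.40 in 5 members and 0.29 in 62. Each motif was searched by itself, so that matches of different motifs may overlap. Such matches are descriptions of sequence and not of binding.

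The 250 bases before the start are shown for 4 of the members called higher, chosen as 1 for each motif, and for both members that fell. Matches to the 4 motifs are in capitals. Mrps9, the member with the largest rise, is not shown. It holds none of the 4 motifs in these 250 bases, although its whole window holds the NRF1 core. For Mrpl19 no window was present. Mrpl12 (GRCm38.p6 chr11:120484387-120484636, plus strand) holds the NRF1 core, Mrpl3 (GRCm38.p6 chr9:105053018-105053267, plus strand) the ETS core beside its start, Mrpl47 (GRCm38.p6 chr3:32736756-32737005, minus strand) the YY1 core at 2 places, and Mrpl2 (GRCm38.p6 chr17:46645971-46646220, plus strand) the E-box. Of the members that fell, Mrpl39 (GRCm38.p6 chr16:84735245-84735494, minus strand) holds the NRF1 core, as Mrpl12 does, and Mrps10 (GRCm38.p6 chr17:47368947-47369196, plus strand) none of the 4 motifs.
Mrpl12: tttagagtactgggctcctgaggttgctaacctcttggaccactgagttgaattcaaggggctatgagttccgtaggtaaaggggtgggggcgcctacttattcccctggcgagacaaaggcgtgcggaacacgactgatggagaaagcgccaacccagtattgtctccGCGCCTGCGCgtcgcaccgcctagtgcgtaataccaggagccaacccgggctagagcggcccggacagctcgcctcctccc
Mrpl3: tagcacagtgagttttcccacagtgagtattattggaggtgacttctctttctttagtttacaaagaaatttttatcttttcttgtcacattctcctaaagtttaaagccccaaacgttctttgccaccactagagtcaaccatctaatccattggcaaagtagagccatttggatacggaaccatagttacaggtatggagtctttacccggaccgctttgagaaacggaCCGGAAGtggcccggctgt
Mrpl47: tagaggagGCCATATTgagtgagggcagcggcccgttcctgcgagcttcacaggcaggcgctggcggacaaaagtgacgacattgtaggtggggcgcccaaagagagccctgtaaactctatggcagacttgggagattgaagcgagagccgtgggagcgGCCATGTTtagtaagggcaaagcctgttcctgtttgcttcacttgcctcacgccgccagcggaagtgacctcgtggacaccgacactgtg
Mrpl2: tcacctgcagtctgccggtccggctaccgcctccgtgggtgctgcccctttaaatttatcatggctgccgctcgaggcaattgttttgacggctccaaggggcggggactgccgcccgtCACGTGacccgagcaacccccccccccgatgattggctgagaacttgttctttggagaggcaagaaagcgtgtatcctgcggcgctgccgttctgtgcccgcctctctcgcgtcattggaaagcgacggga
Mrpl39: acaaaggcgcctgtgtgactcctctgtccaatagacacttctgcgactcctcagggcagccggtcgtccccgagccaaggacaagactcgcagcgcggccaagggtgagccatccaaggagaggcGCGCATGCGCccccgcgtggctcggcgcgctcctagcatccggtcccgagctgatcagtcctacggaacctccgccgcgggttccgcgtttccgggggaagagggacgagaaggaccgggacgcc
Mrps10: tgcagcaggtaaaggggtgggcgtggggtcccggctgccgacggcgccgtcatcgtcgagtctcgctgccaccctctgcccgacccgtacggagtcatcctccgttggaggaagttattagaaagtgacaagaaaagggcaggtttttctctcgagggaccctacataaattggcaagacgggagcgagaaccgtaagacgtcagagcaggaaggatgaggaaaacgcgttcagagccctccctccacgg

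The direction of the family did not depend on the settings tried, whereas the number of members passing the test did. The median of the members was above that of all genes tested in each of 18 fits, from 0.15 with the centred length correction to 0.42 without wild type replicate 3. With library size as the only scaling, the median of all genes moved from −0.04 to −0.15 and that of the members from 0.31 to 0.21, so that the distance between them stayed at 0.36. Mrps9, Mrpl47, Mrpl19, Mrpl3, Mrpl12, Mrpl2 and Mrpl45 rose, and Mrpl39 and Mrps10 fell, in each of these fits.

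**Figure D5:**
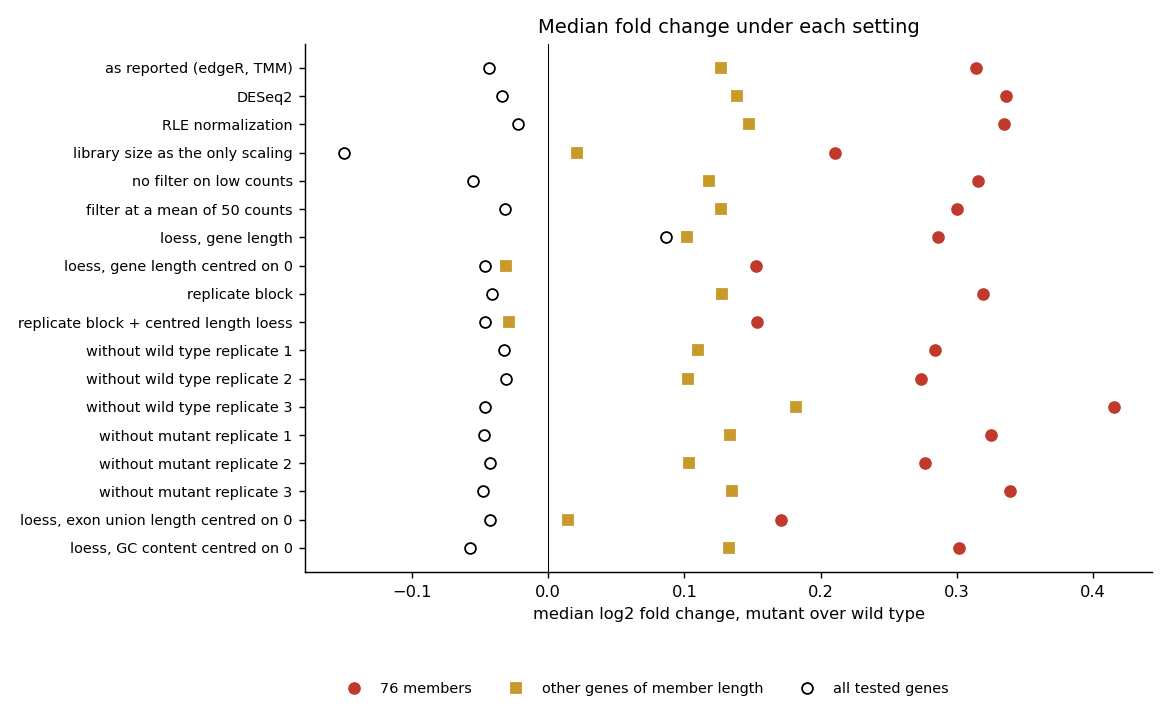
Median log2 fold change (mutant over wild type, x axis) under each of 18 settings (y axis), for the 76 members (red circles), for other genes within the middle 50% of member lengths (yellow squares) and for all genes tested (open circles). The red circles lie to the right of both others in every row, between 0.15 and 0.42.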

How the data were processed

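Embryonic intestinal epithelial cells were sorted, and cDNA was made from polyA RNA with the SMARTer v4.0 kit and 15 cycles of amplification. The authors aligned reads to mm9 with STAR 2.5.2b and counted unique reads per gene with featureCounts 1.5.1. The deposited values are counts per gene, not normalised, and the authors' own test was DESeq2 1.18.1. Strand use in counting and molecular identifiers were not given in the sources used here.

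Counts of the 6 libraries (3 mutant, 3 wild type, grouped by the genotype label) were analysed with edgeR 4.0.16 in R 4.3.3: filterByExpr, TMM normalisation, the quasi-likelihood test on genotype over all 12501 genes kept, and Benjamini-Hochberg adjustment. SE was the log2 fold change divided by the root of the F statistic. A normalised count is a count divided by the effective library size and multiplied by its mean. Gene positions and lengths came from GENCODE vM1 on NCBIM37 (mm9), taking the transcript with the longest coding sequence, and 11874 tested genes had a length. RPKM was computed from normalised counts and these lengths. The study's limit of 50 RPKM was replaced by a mean of 50 normalised counts, and RPKM was tried as an alternative.

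The members, lists and tests were chosen with earlier results of these data known. Genes with values in every library were the 5 largest and the 5 smallest changes at adjusted p under 0.05, those called by the modified study criteria, the 3 highest and lowest per length, members of stated role and those whose symbol and place differ. Libraries of the same number were not treated as paired, since the labels give no pairing. Their deviations from the group means correlated at 0.0096, −0.045 and −0.018, against −0.025 to 0.042 for libraries of different numbers. Such correlations cannot show whether litters or batches were shared. Alternatives were DESeq2 1.42.0, RLE and library size scaling, other filters and thresholds, loess corrections (span 0.5) for length, a replicate block and leaving out each library. Corrections for exon union length and for GC content were added after seeing the data. Scripts were tested on simulated data. The total counts limit precision chiefly for members with few counts.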

Additional observations from a re-analysis of the deposited data

How the results depend on the processing

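Both members that fell did so in each alternative tried, and the medians of the members, of the large and of the small subunit stayed above 0 in each. With library size as the only scaling, 35 members rose (46.1%, against 8.01% of all genes). By the modified study criteria, 2 were called higher and 2 lower, beside 200 and 958 of 12501 genes. The medians were 0.21, 0.21 and 0.21 (all members, large, small). That scaling moved the median of all genes by about −0.11, to −0.15, and 28.1% of changed genes were then higher against 47.4% in the reported fit. With the study's limit of 50 RPKM in place of the mean count, 5 members were called higher and 0 lower. Calls over all genes were not counted at that limit. A mean of 50 counts as the filter gave 1 member called lower, beside 836 of 10567 genes. The length correction without centring gave 12 called higher and 1 lower, beside 715 and 390 of 12501 genes. In the reported fit these numbers over all genes were 348 and 729, so the calls of higher genes grew well beyond the members too. Over all genes this correction had a median of 0.09, and 71.4% of the changed genes rose. The centred correction gave 29 that rose (38.2%, against 12.2% of all genes), 1 called lower (beside 589 genes) and medians of 0.15, 0.18 and 0.14. Exon union length gave 29 (38.2%, against 12.8%), 1 (beside 618 genes) and 0.17, 0.18 and 0.17. GC content gave 11 called higher and 2 lower, beside 367 and 683 genes. With 0.01 as the limit of the adjusted p, 32 rose, and the share of all genes was not counted at that limit.

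With the replicate block, 43 members rose (56.6%, against 11.2% of all genes), 2 fell and the median was 0.32. The labels do not state that libraries of the same number are paired. The block with the centred length correction gave 19 that rose (25%, against 10.3% of all genes), 1 called lower (beside 416 genes) and medians of 0.15, 0.18 and 0.14. Leaving out each library in turn gave 31 to 65 members that rose (40.8% to 85.5%, against 8.16% to 18.3% of all genes) and 2 that fell in each case. These fits gave 4 to 17 called higher and 0 to 2 called lower, beside 260 to 516 and 405 to 867 of all genes. The medians ranged from 0.27 to 0.42 for all members, 0.27 to 0.42 for the large and 0.26 to 0.40 for the small subunit. The highest of these came without wild type replicate 3. The cause was not tested.

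Directions turned in 5 of the genes described. Mrpl23 was at −0.064 with the centred length correction, alone or with the block, and Mrpl42 and Mrpl44 were at −0.0060 and −0.034 with exon union length. Mrps12 was at −0.026 with library size, −0.045 and −0.18 with the length corrections, −0.18 with the block added and −0.16 with exon union length. Mrps5 was at 0.22 and 0.083 with the length corrections, 0.083 with the block added and 0.040 with exon union length, and between −0.089 and 0.042 without 1 library. Of the values for single genes, 367 kept direction and call, 57 lost the call, 3 gained it and 15 turned.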

Other observations

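The median coefficient of variation of a member was 9.32% among wild type and 5.24% among mutant libraries, against 11.8% and 10.3% over all genes tested, which includes the distance of wild type replicate 3 from the others. The members stood at higher levels, with wild type medians of 88.8 (large) and 77.9 RPKM (small) against 8.99 over all tested genes. Genes of like level were not compared for this spread. Across the 76 members, log2 fold change had a Spearman's rho of 0.24 with the mean normalised count and of 0.06 with GC content. Over the 11583 tested genes with a GC value, the rho with GC content was −0.19. The 76 genes lie on 17 chromosomes, with 10 of them on chromosome 11.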
